A study of Homo sapiens with 6 samples.

Results

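The heat shock proteins, the J-proteins and the HSP90 co-chaperones were followed in SW480, a human colon carcinoma cell line, after knockdown of ALDH1B1, a mitochondrial aldehyde dehydrogenase. The set holds every gene symbol of the deposited expression table that names an HSP90, HSPA, HSPB, HSPD1, HSPE1, HSPH1, DNAJA, DNAJB or DNAJC gene, together with STIP1, AHSA1, BAG3, HSF1, HSF2, FKBP4, CDC37, CHORDC1 and PTGES3. This gave 104 of the 22258 symbols in the table: 76 family genes, here called coding members, 24 pseudogenes, 3 antisense RNAs and 1 readthrough transcript. RefSeq lists DNAJB3, counted among the 76, as a transcribed pseudogene. The groups were 3 samples labelled ALDH1B1 KD, SW480 cells with the knockdown, and 3 samples labelled SCR, whose genotype is given as WT, the SW480 controls. How the knockdown was made, whether either line is 1 clone and whether samples of a group came from separate cultures is not stated in the labels, so each p-value reflects just the scatter among the 6 samples, part of which could be technical. All cells were detached with trypsin before RNA was taken, and strand-specific libraries were made from total RNA.

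Molecular chaperones help proteins to fold and keep unfolded stretches from clumping. HSP70 proteins bind such stretches in a cycle driven by ATP, in which J-proteins bring the substrate and start ATP hydrolysis and nucleotide exchange factors, among them the HSP110 proteins and BAG3, let the substrate go. HSP90 acts later on a set of clients that includes kinases and steroid receptors, with co-chaperones that load, time or end its cycle; the cytosol, the endoplasmic reticulum (ER) and the mitochondria each have their own members. HSF1 is the main transcription factor of the heat shock response, and it binds heat shock elements, arrays of inverted GAA units, in the promoters of many of the cytosolic genes.

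Expression is given in RPM, the reads of a gene scaled to a fixed library total, which are not scaled to gene length, so levels are compared between samples and not between genes. Depth was 20360000 to 28590000 reads per library, and 3 reads, taken as the floor, came to 0.105 to 0.147 RPM; intervals and floors of this kind cover counting error only. ALDH1B1 (table position 38392661 to 38398659 on chromosome 9; the table names no build) had 20.0, 20.4 and 23.2 RPM in the KD samples, against 34.1, 39.6 and 36.7 RPM in the SCR samples. That is 57.6% of the SCR mean, with no overlap of the groups (log2 fold change −0.80, SE 0.0926, limma adjusted p = 2.37e-07). Of the colon epithelial markers, 10 of 11 were in the table and 7 lay above 3 reads in every sample, with a summed level of 5830 to 6143 RPM in KD samples and 5433 to 5689 RPM in SCR samples. KRT20, LGALS4 and GPA33 were at or near the floor in both groups. Among leukocyte markers 2 of 4 were in the table, at a summed 0.521 to 0.925 RPM in KD samples and 1.03 to 1.87 RPM in SCR samples, and of the fibroblast and endothelial markers only COL1A1 and VWF were in it. The epithelial sum is mostly keratin (KRT8, KRT18 and KRT19), and 4 of the other epithelial markers differed without overlap between the groups, in both directions. CDH1 had 45.4 to 55.0 RPM in KD samples and 9.86 to 15.6 RPM in SCR samples, EPCAM 204 to 209.9 RPM in KD samples and 101 to 116 RPM in SCR samples, and VIL1 20.5 to 23 RPM in KD samples and 5.44 to 6.50 RPM in SCR samples. CDX2 was lower, at 28.5 to 35.2 RPM in KD samples and 52.3 to 57.3 RPM in SCR samples. Their part in the chaperone values was not tested.

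In ALDH1B1 KD cells 19 of 34 tested cytosolic members fell, 14 were not called and 1 rose. The inducible and the constitutive HSP90, all 3 HSP110 proteins, the most strongly read HSP70 and 5 of 6 HSP90 co-chaperones fell, most of them to between 64 and 81% of the SCR mean. The ER members had no such common direction, and 5 of them rose. Of the 76 coding members 69 passed the filter on low levels, a mean of 0.688 RPM, and in limma's test over 15496 genes, with Benjamini-Hochberg adjustment over all of them and a threshold of 0.05, 29 fell and 9 rose. As background, 41.8% of all tested genes were called in this contrast, 19.2% falling and 22.6% rising, so the knockdown and control samples differed widely. Against that, 42.0% of the coding members fell and 13.0% rose. Their median log2 fold change was −0.16. All 3 KD samples lay below all 3 SCR samples for 33 coding members, and above them for 8; over all tested genes the shares were 24.6% and 26.5%. HSPB8 passed the filter through the SCR group alone, its KD mean being below it; of the 68 coding members with both group means at or above the filter, 28 fell and 9 rose.

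Calls that fell were more frequent among strongly read genes. Of all 5254 genes tested with a mean of at least 30 RPM, a cut chosen after the values were seen, 31.6% fell and 17.4% rose, and of the 44 coding members at that level 24 fell (54.5%) and 5 rose. Of all 1320 genes at 100 RPM or more, 37.7% fell, and of the 17 coding members there 13 fell (76.5%) and none rose. The members' share that fell was therefore above that of all genes at the same level, and no test of that difference was made. In bulk RNA, fewer cells of a type and less RNA per cell cannot be told apart.

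By compartment the counts diverged. The cytosolic members that fell were 55.9% of those tested (median log2 fold change −0.31), and 18 of 33 without HSPB8. Within the cytosol the share varied: both HSP90 genes and all 3 HSP110 genes fell, but 2 of 8 HSP70 genes and 5 of 12 J-protein genes. Of 14 ER members 2 fell and 5 rose, with a median of −0.08. Of 8 mitochondrial members 3 fell (37.5%) and 1 rose, and of 5 nuclear members 3 fell and none rose. Of 3 vesicle-linked members 2 fell, and of 5 members placed elsewhere 2 rose. Over all tested genes 19.2% fell and 22.6% rose, and at a mean of 30 RPM or more 31.6% fell and 17.4% rose. At that level 17 of 25 cytosolic members fell (68.0%) and 1 rose, and of 8 ER members 1 fell (12.5%) and 3 rose (37.5%). The counts of the smaller compartments were not matched for level. Summed over all 40 cytosolic members, KD samples had 6029, 5201 and 5501 RPM, against 7003, 7539 and 7781 RPM in SCR samples. Every KD sum lay below every SCR sum, and the KD mean was 75.0% of the SCR mean. Summed ER members came to 1165 ± 7.32 RPM in KD samples and 1186 ± 49 RPM in SCR samples (SD, n = 3 each), 98.2% of SCR, a difference smaller than the SD of the SCR group. The largest terms of that sum, HSPA5 and HSP90B1, differed in opposite directions, though neither was called. HSPA5 averaged 374 RPM in KD and 410.2 RPM in SCR samples, and HSP90B1 370.5 RPM in KD and 357 RPM in SCR samples. Mitochondrial members summed to 1064 ± 57.4 RPM in KD samples and 1304 ± 40.4 RPM in SCR samples (SD, n = 3 each), 81.6% of SCR. HSP90AA1 alone carried 41.4% of the summed difference over all coding members. Without it the cytosolic members summed to 3987 RPM in KD samples and 4952 RPM in SCR samples, 80.5% of SCR.

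**Figure D1:**
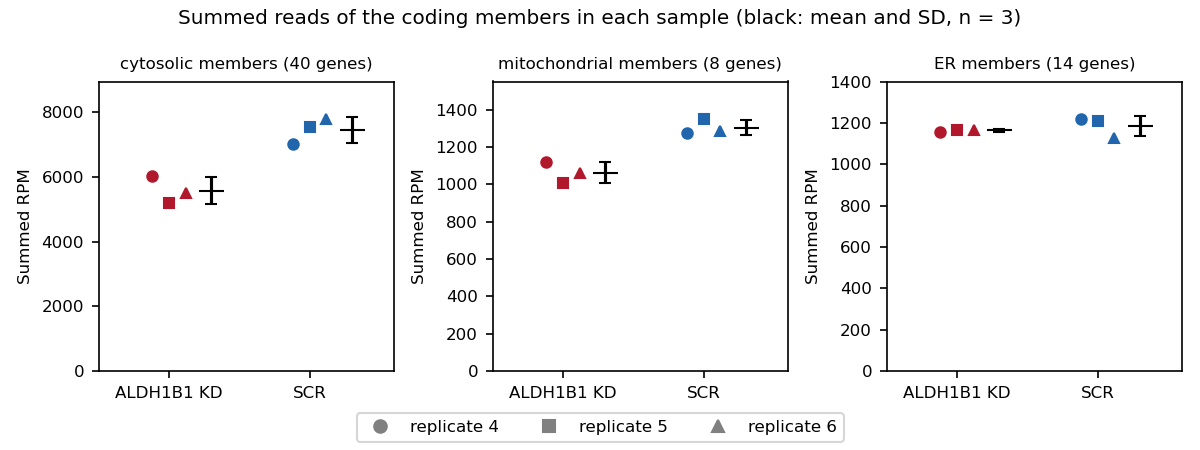
Summed RPM (vertical axes, from 0) of the coding members of 3 compartments in each ALDH1B1 KD sample (left in each panel) and each SCR sample (right), with mean and SD in black (n = 3). The cytosolic and mitochondrial sums of KD samples lie below all SCR sums, while the ER sums, 1165 RPM on average in KD and 1186 RPM in SCR samples, lie close together.

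**Figure D2:**
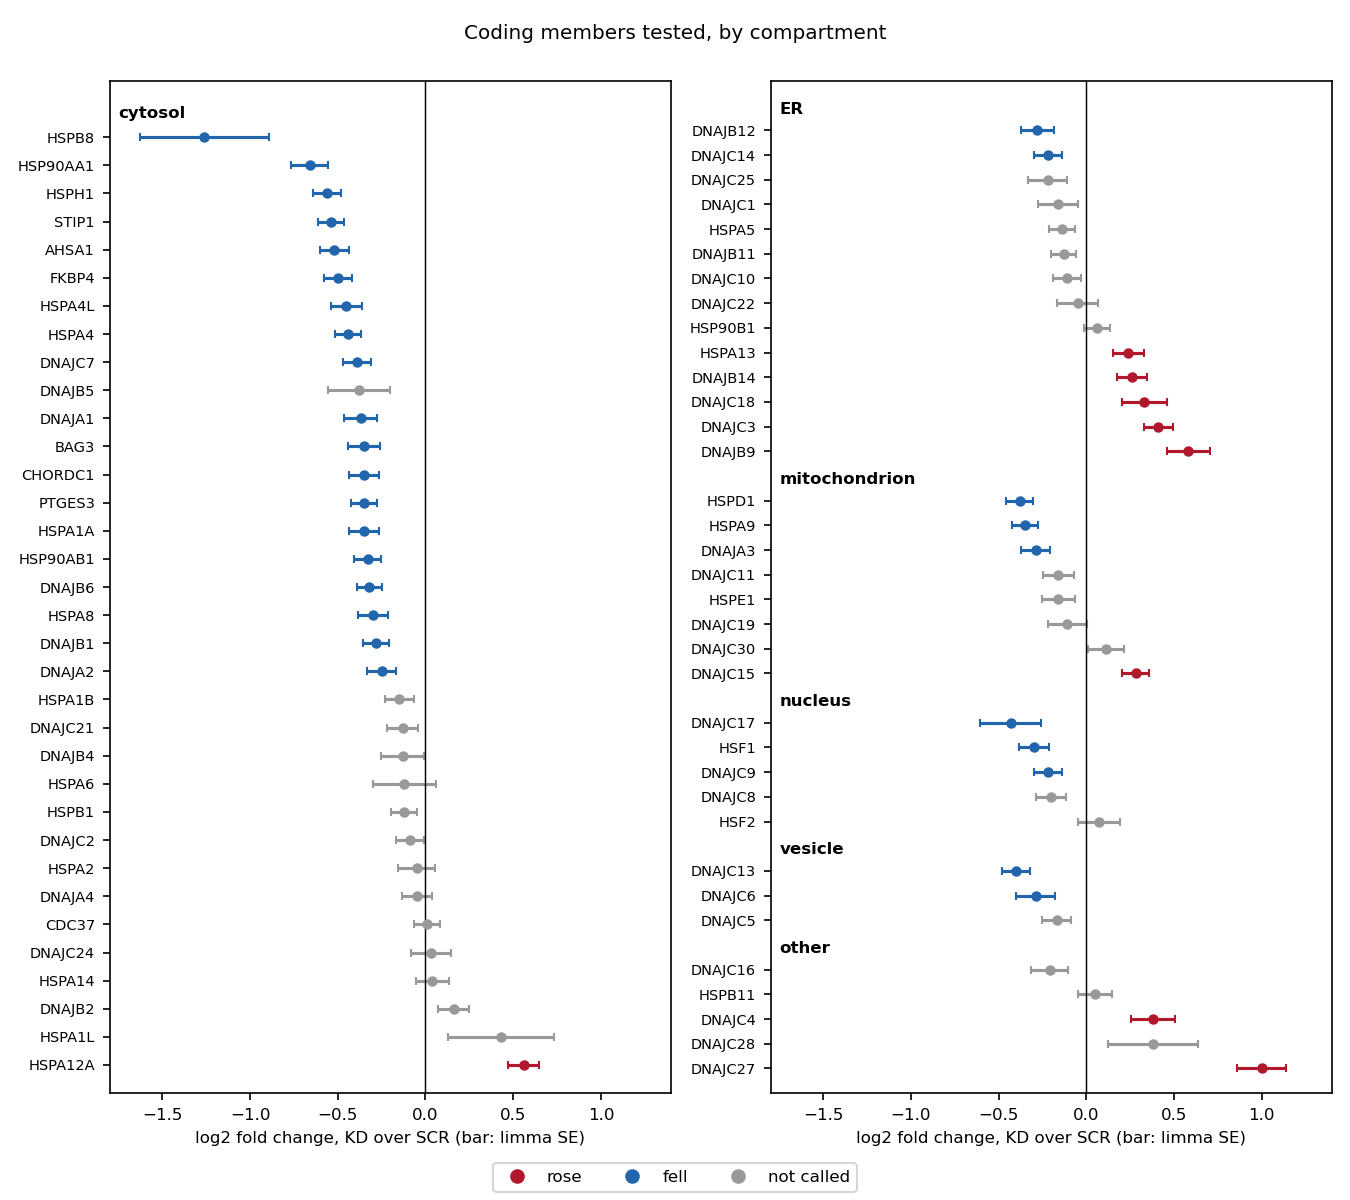
Log2 fold change of KD over SCR for the 69 coding members tested, by compartment, with limma's standard error as bars (blue fell, red rose, grey not called at an adjusted p of 0.05). In the cytosol HSPA12A is the 1 red point, and in the ER 5 points are red and 2 blue.

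Promoter stretches are shown for the members that carry heat shock or ER stress elements, to set the DNA beside the values that follow. RefSeq promoters (GRCh38.p14, 250 bases before to 50 after the annotated start) were matched by symbol for 68 of the 76 coding members; DNAJB3, DNAJC1, DNAJC22, DNAJC24, HSF1, HSPA12B, HSPA14 and FKBP4 had no entry. A heat shock element of 3 units was searched as GAANNTTCNNGAA or TTCNNGAANNTTC on both strands. It was found in 133 of 27305 promoters (0.487%) and in 5 of the 68 members (7.35%): DNAJA1, DNAJB6, HSPA6, HSPA8 with 2 matches and CHORDC1 with 3 overlapping ones. Each stretch is written 5′ to 3′ on the gene's strand, with the matched element in capitals.
DNAJA1 (chr9:33025264-33025300, plus strand): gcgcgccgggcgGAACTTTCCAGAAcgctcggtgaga
DNAJB6 (chr7:157336861-157336897, plus strand): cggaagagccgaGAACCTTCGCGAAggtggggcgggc
HSPA6 (chr1:161524454-161524490, plus strand): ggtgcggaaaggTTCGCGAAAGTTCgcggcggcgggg
HSPA8 (chr11:123062167-123062378, minus strand): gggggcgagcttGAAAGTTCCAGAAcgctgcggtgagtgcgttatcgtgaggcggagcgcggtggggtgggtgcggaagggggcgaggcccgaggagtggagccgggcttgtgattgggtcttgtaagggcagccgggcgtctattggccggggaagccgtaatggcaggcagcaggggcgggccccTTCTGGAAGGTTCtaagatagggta
CHORDC1 (chr11:90223075-90223121, minus strand): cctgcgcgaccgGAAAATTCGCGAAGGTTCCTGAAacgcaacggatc

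The ER stress element was searched as CCAAT, any 9 bases, then CCACG, on both strands. It was found in 22 promoters (0.0806%), 2 of them of members: HSPA5, with 1 match, and HSP90B1, with 2, the second of which runs on the opposite strand.
HSPA5 (chr9:125241379-125241421, minus strand): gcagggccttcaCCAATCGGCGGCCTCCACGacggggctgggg
HSP90B1 (chr12:103930204-103930351, plus strand): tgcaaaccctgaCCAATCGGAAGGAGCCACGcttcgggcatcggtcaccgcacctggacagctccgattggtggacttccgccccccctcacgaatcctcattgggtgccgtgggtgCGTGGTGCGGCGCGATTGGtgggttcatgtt

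Of the 5 genes with a 3-unit heat shock element DNAJA1, DNAJB6, HSPA8 and CHORDC1 fell and HSPA6 was not called. Of the 58 tested members without it 23 fell, and both genes with an ER stress element were not called. The 4 that fell had means above 30 RPM, where 31.6% of all genes and 54.5% of coding members fell, against 19.2% of all tested genes. HSPA6 had at most 3.94 RPM in any sample, so these counts are not matched for level. A shorter form of 2 units, GAANNTTC or TTCNNGAA, which every 3-unit match also contains, was in 3738 promoters (13.7%) and in 14 members (20.6%). Of these 7 fell, 1 rose, 4 were not called and 2 were not tested. HSPB8, with the shorter form alone, is among these 7 and among the 23 above. It passed the filter through the SCR group alone, so its call adds no weight to either count. Among the 51 tested members without this shorter form 20 fell and 8 rose. HSP90AA1, HSPH1 and STIP1, which fell furthest among the well-read cytosolic members, had neither form of the element within this window. Just 1 promoter was searched per symbol, so other start sites of these genes were not covered. A match of letters is a description and no evidence of binding.

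**Figure D3:**
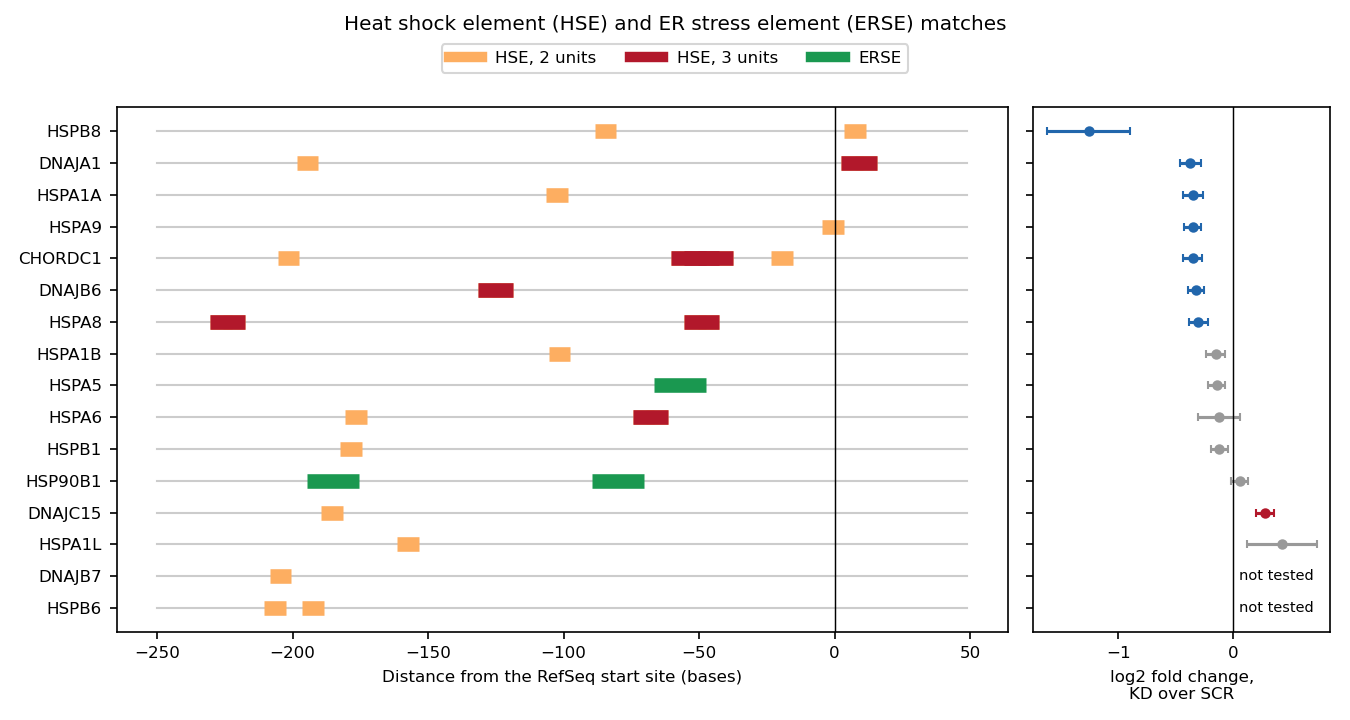
Distance of heat shock element matches (HSE, 2 or 3 units) and ER stress element matches (ERSE) from the RefSeq start site in bases (left, start at 0), and the log2 fold change of KD over SCR with limma's standard error (right), for the 16 coding members with a match. DNAJA1, CHORDC1, DNAJB6 and HSPA8, each with a 3-unit element, have log2 fold changes of −0.37 to −0.30, and HSPA6 lies at −0.12.

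HSP90 in the cytosol comes as HSP90AA1, the inducible form, and HSP90AB1, the constitutive one. HSP90AA1 (chromosome 14, 102547075 to 102606037, minus strand, table's coordinates) had 1924, 1425 and 1418 RPM in the KD samples, against 2268, 2516 and 2687 RPM in the SCR samples. All 3 KD samples lay below the lowest SCR sample, and the mean was 63.8% of SCR (log2 fold change −0.66, SE 0.104, limma adjusted p = 1.72e-05). Replicate 4 stood nearest to the other group on both sides, the highest of the KD samples and the lowest of the SCR samples. Within 2.5 Mb of HSP90AA1, 17 of 47 tested genes fell and 5 rose (median log2 fold change −0.18). The part of that neighbourhood in its fall was not tested. HSP90AB1 (chromosome 6, 44214824 to 44221621) had 648, 626 and 699 RPM in KD samples, against 807, 855 and 824 RPM in SCR samples, again without overlap (−0.33, SE 0.0767, adjusted p = 0.00105). Their ER relative HSP90B1, known as GRP94, had 378, 367 and 367 RPM in KD samples, against 374, 364 and 333 RPM in SCR samples, and was not called (0.06, adjusted p = 0.572), though under quantile normalization it was (0.13, adjusted p = 0.0247).

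The HSP90 co-chaperones fell with it, CDC37 apart. STIP1, or HOP, which links HSP70 to HSP90 and passes on the client, had 141, 139 and 157 RPM in KD samples, against 209, 219 and 206 RPM in SCR samples, a mean of 69% of SCR with no overlap (log2 fold change −0.54, SE 0.0743, limma adjusted p = 3.03e-06). AHSA1, the activator of the HSP90 ATPase, had 52.1, 47.4 and 55.2 RPM in KD samples, against 68.0, 76.6 and 77.1 RPM in SCR samples (−0.52, adjusted p = 2.01e-05). FKBP4, an immunophilin of the steroid receptor complexes, had 120.4, 105 and 126 RPM in KD samples, against 156, 173 and 169 RPM in SCR samples (−0.50, adjusted p = 1.78e-05). In each of these the groups stood well apart, with KD means of 69 to 71% of SCR. PTGES3, or p23, which holds HSP90 in its closed state, had 288, 266 and 273 RPM in KD samples, against 353, 353 and 344 RPM in SCR samples (−0.35, adjusted p = 4.01e-04). CHORDC1, whose promoter carries the 3 overlapping heat shock elements shown above, had 34.9, 34.9 and 35.9 RPM in KD samples, against 43.0, 42.7 and 49.1 RPM in SCR samples (−0.35, adjusted p = 0.00177). CDC37, which brings kinases to HSP90, had 95.6, 92.0 and 101 RPM in KD samples, against 92.7, 100.3 and 94.1 RPM in SCR samples. Its groups overlapped fully (0.01, SE 0.0754, adjusted p = 0.931). Summed, the 6 co-chaperones came to 76.6% of SCR.

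**Figure D4:**
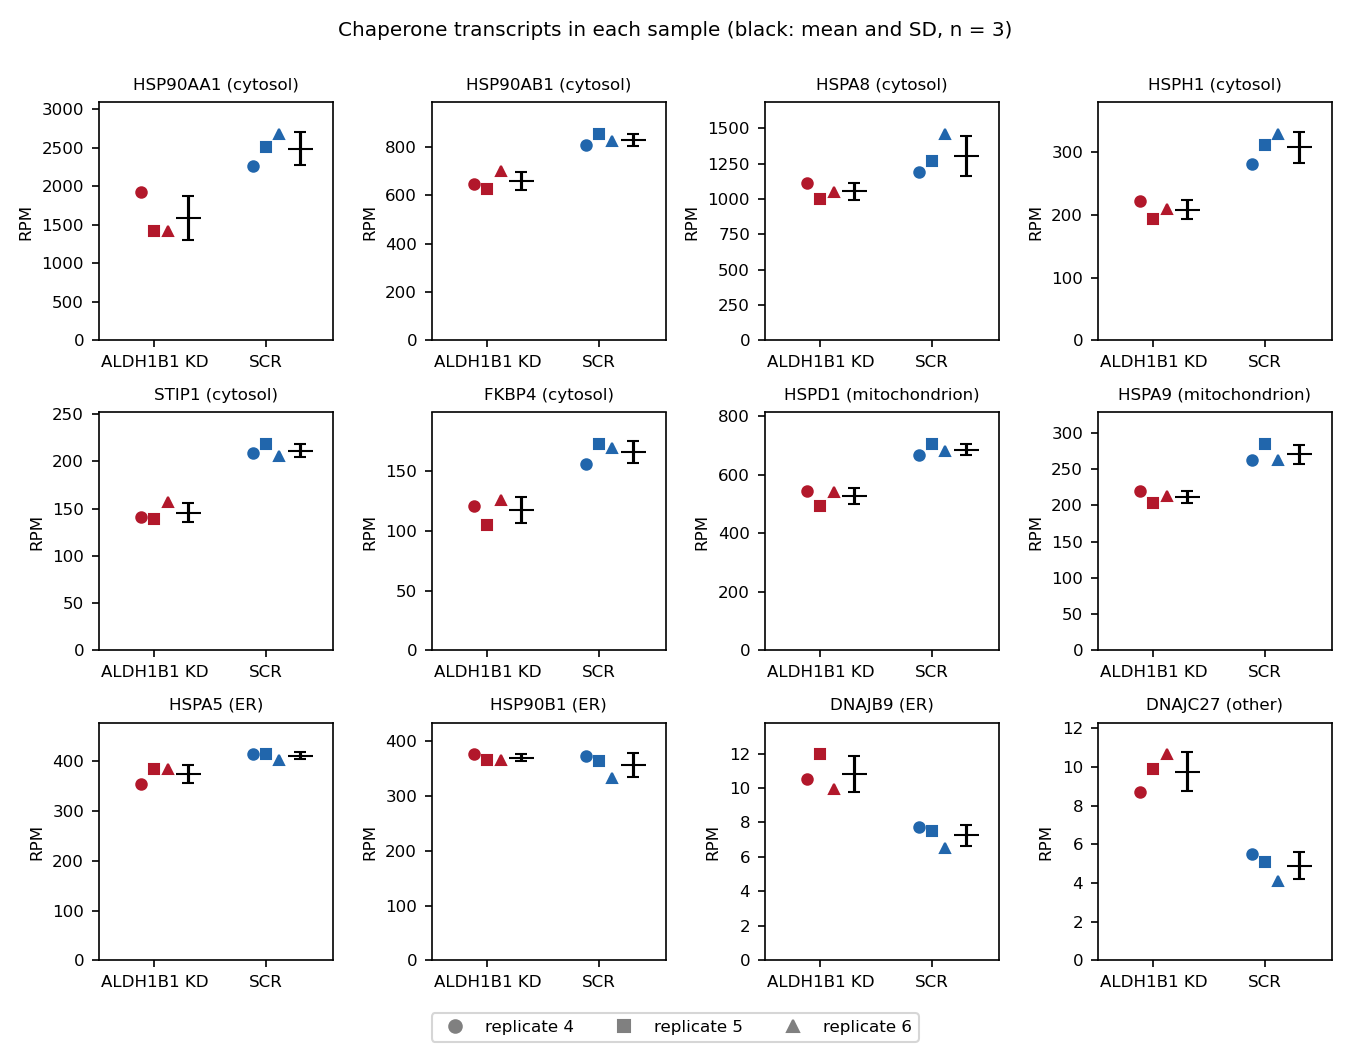
RPM (vertical axes, from 0, scaled per gene) of 12 members in each ALDH1B1 KD sample (left) and each SCR sample (right), with mean and SD in black (n = 3). In the 8 panels of cytosolic and mitochondrial members the KD samples lie below all SCR samples; HSP90B1 overlaps, HSPA5 lies slightly lower in KD samples, and DNAJB9 and DNAJC27 lie above all SCR samples.

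Among the HSP70 proteins of the cytosol the members differed. HSPA8, the constitutive HSC70, had 1115, 999 and 1046 RPM in KD samples, against 1187, 1265 and 1462 RPM in SCR samples. The groups did not overlap, but the gap between KD replicate 4 and SCR replicate 4 was small (log2 fold change −0.30, SE 0.0866, limma adjusted p = 0.00626). Under quantile normalization its value was −0.13 and the call was lost (adjusted p = 0.0717), as it was without a variance trend (adjusted p = 0.0591). HSPA1A, an inducible HSP70, had 78.0, 68.6 and 86.3 RPM in KD samples, against 92.8, 107 and 95.7 RPM in SCR samples (−0.35, adjusted p = 0.00214). HSPA1B, its near-identical neighbour, had 88.9, 90.7 and 103 RPM in KD samples, against 94.6, 113 and 106 RPM in SCR samples (−0.15, adjusted p = 0.157). How reads were divided between these 2 copies is not given in the sources used here, so the contrast between them is uncertain. Without a variance trend HSPA1A was not called (adjusted p = 0.0507). HSPA6, a strictly stress-induced human HSP70, stayed at 2.84 to 3.86 RPM in KD samples and 2.97 to 3.94 RPM in SCR samples and was not called. HSPA12A, a distant relative of the family, was the 1 cytosolic member that rose, with 72.1, 76.0 and 79.0 RPM in KD samples, against 57.8, 52.9 and 44.4 RPM in SCR samples (0.56, SE 0.0886, adjusted p = 1.95e-05). Genes near HSPA12A had a median log2 fold change of −0.19. HSPA2, HSPA14 and HSPA1L were not called, and HSPA12B lay below the filter.

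The HSP110 proteins, large relatives of HSP70 that act as its nucleotide exchange factors and help to pull aggregates apart, all fell. HSPH1 (chromosome 13, 31710762 to 31736526, minus strand, table's coordinates) had 223, 193 and 209 RPM in KD samples, against 281, 312 and 329.9 RPM in SCR samples, 67.7% of the SCR mean (log2 fold change −0.56, SE 0.0791, limma adjusted p = 3.73e-06). HSPA4 had 162, 143 and 163 RPM in KD samples, against 213, 215 and 205 RPM in SCR samples (−0.44, adjusted p = 4.48e-05). HSPA4L had 25.4, 22.9 and 22.1 RPM in KD samples, against 34.2, 31.4 and 30.5 RPM in SCR samples (−0.45, adjusted p = 3.17e-04). None of the 3 had overlapping groups. BAG3, an exchange factor that links HSP70 to the small heat shock proteins and to selective autophagy, had 28.8, 26.7 and 32.8 RPM in KD samples, against 37.1, 40.8 and 34.4 RPM in SCR samples (−0.35, adjusted p = 0.00409). Within 2.5 Mb of BAG3, 10 of 27 tested genes fell and none rose, against 19.2% and 22.6% of all tested genes. The part of that neighbourhood in the fall of BAG3 was not tested.

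The small heat shock proteins hold unfolded proteins without using ATP. HSPB1, or HSP27, had 152, 140.2 and 149.7 RPM in KD samples, against 156, 171 and 155 RPM in SCR samples, a narrow separation that was not called (log2 fold change −0.12, limma adjusted p = 0.185). HSPB8, the partner of BAG3, was scarcely read, with 0.617, 0.344 and 0.573 RPM in KD samples, against 1.01, 1.56 and 1.06 RPM in SCR samples, or 7 to 33 reads per library. Its KD mean, 0.512 RPM, lay below the filter of 0.688 RPM and its SCR mean, 1.21 RPM, above it, so its call (−1.26, SE 0.366, adjusted p = 0.00722) carries no weight here. With an added 1 RPM the log2 fold change was −0.55, and without SCR replicate 5 the call was lost (−1.07, adjusted p = 0.0555). HSPB11, which despite its name belongs to the transport machinery of cilia, was not called. HSPB6 and HSPB7 lay below the filter.

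The transcription factor HSF1 (chromosome 8, 145515280 to 145538386, table's coordinates) had 49, 46.6 and 53.1 RPM in KD samples, against 57.9, 68.6 and 56.9 RPM in SCR samples, and fell (log2 fold change −0.30, SE 0.0865, limma adjusted p = 0.00684). The call was lost without KD replicate 5 (adjusted p = 0.0571), without SCR replicate 5 (−0.21, adjusted p = 0.0734) and without a variance trend (adjusted p = 0.0638). HSF2, a second heat shock factor with roles in development, had 10, 9.24 and 9.90 RPM in KD samples, against 9.03, 10.4 and 8.33 RPM in SCR samples and was not called (0.07, adjusted p = 0.644). These are transcript levels, and HSF1 is controlled mainly after translation.

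In the mitochondria the chaperonin and the matrix HSP70 fell. HSPD1, or HSP60, had 543, 494 and 541 RPM in KD samples, against 668, 706 and 679.9 RPM in SCR samples (log2 fold change −0.38, SE 0.0754, limma adjusted p = 2.41e-04). HSPE1, or HSP10, the lid of the HSP60 chamber, had 177, 130.4 and 126 RPM in KD samples, against 155, 161 and 164 RPM in SCR samples. Its groups overlapped through KD replicate 4, and it was not called (−0.16, adjusted p = 0.171); without that replicate it was (−0.32, adjusted p = 0.00469). The table's intervals for these 2 genes overlap on opposite strands. HSPA9, or mortalin, had 219, 203 and 213 RPM in KD samples, against 263, 285 and 262 RPM in SCR samples (−0.35, adjusted p = 4.19e-04). DNAJA3, its J-protein partner, had 53.1, 51.6 and 55.8 RPM in KD samples, against 67.5, 68.6 and 60.5 RPM in SCR samples (−0.29, adjusted p = 0.00486). DNAJC15, a J-protein of the inner membrane import motor, went the other way, with 56.5, 56.2 and 52.2 RPM in KD samples, against 44.6, 46.1 and 44.6 RPM in SCR samples (0.28, adjusted p = 0.00529). Genes near DNAJC15 had a median log2 fold change of −0.04. The paralog of DNAJC15, DNAJC19, was not called, nor were the mitochondrial J-proteins DNAJC11 and DNAJC30.

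The ER held 5 of the 9 coding members that rose. HSPA5, or BiP, the HSP70 of the ER, had 353, 384 and 384 RPM in KD samples, against 414, 415 and 402 RPM in SCR samples. All 3 KD samples lay lower, but the difference was small and not called (log2 fold change −0.14, SE 0.0730, limma adjusted p = 0.138); with median-of-ratios scaling it was called (adjusted p = 0.0388). DNAJB9, or ERdj4, a J-protein that guides unfolded proteins to degradation, had 10.5, 12 and 9.94 RPM in KD samples, against 7.71, 7.49 and 6.54 RPM in SCR samples, 149% of the SCR mean (0.58, SE 0.123, adjusted p = 5.31e-04). DNAJC3, or p58IPK, a J-protein of the ER lumen and an inhibitor of eIF2-alpha kinases, had 45.3, 48.5 and 47.2 RPM in KD samples, against 37.0, 36.0 and 33.4 RPM in SCR samples (0.41, adjusted p = 3.12e-04). Within 2.5 Mb of DNAJC3 the median log2 fold change was 0.42 and 6 of 10 tested genes rose, against 22.6% of all tested genes. Near DNAJB9, DNAJC18 and DNAJB14 the median was −0.03, −0.08 and −0.30, and HSPA13 had too few neighbours for a median. The part of these neighbourhoods in the rises was not tested. HSPA13, DNAJB14 and DNAJC18 also rose, by 0.24 to 0.33 on the log2 scale, and each lost its call in at least 2 of the 6 runs that leave out a sample. Without SCR replicate 6, HSPA13 had a log2 fold change of 0.15 and DNAJC18 of 0.19. DNAJB12 and DNAJC14, membrane J-proteins, fell by 0.28 and 0.22 on the log2 scale, with their calls lost in 4 and 5 of the 6 runs without a sample. DNAJB11, DNAJC10, DNAJC1, DNAJC22 and DNAJC25 were not called.

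The J-proteins, which choose where HSP70 works, made up 38 of the tested coding members. Of these 12 fell (31.6%) and 7 rose (18.4%), with a median log2 fold change of −0.14. Over all tested genes 19.2% fell and 22.6% rose. At a mean of 30 RPM or more, 31.6% of all genes fell and 17.4% rose. Many of the 38 J-proteins lay below that level, so those shares are not matched to them. Among the 12 cytosolic J-proteins 5 fell (41.7%) and none rose. DNAJA1, a general partner of HSP70, had 123, 92.8 and 97.7 RPM in KD samples, against 122, 137 and 145 RPM in SCR samples. KD replicate 4 lay inside the SCR range, and the gene was called (log2 fold change −0.37, SE 0.0919, limma adjusted p = 0.00197), except without a variance trend (adjusted p = 0.0658). DNAJB1, or HSP40, had 153, 139.5 and 152 RPM in KD samples, against 171, 186 and 182 RPM in SCR samples (−0.28, adjusted p = 0.00346). Under quantile normalization its value was −0.18. DNAJB6, which suppresses the clumping of polyglutamine proteins, had 123 to 129.9 RPM in the 3 KD samples, against 159, 158 and 155 RPM in SCR samples (−0.32, adjusted p = 7.39e-04). DNAJC7, a J-protein that binds both HSP70 and HSP90, had 57.9, 56.9 and 61.7 RPM in KD samples, against 75.2, 80.9 and 74.6 RPM in SCR samples (−0.39, adjusted p = 2.82e-04). DNAJA2 fell by 0.25 on the log2 scale, with its call lost in 4 of the 6 runs that leave out a sample. DNAJA4, DNAJB2, DNAJB4, DNAJB5, DNAJC2, DNAJC21 and DNAJC24 were not called, and DNAJB3, DNAJB7 and DNAJB13 lay below the filter.

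Outside these compartments the J-protein DNAJC13, which works on endosomes, had 56.9, 53.3 and 56.5 RPM in KD samples, against 72.7, 78.9 and 68.6 RPM in SCR samples (log2 fold change −0.40, SE 0.0794, limma adjusted p = 2.67e-04). DNAJC6, or auxilin, which uncoats clathrin vesicles, fell by 0.29 on the log2 scale, and the nuclear DNAJC9, a histone chaperone, fell by 0.22. DNAJC17, at 52 to 105 reads per library, fell by 0.43. Calls of these 3 were lost in 3 or 4 of the runs without 1 sample. DNAJC27, which carries a small GTPase domain as well as its J-domain, rose most of all coding members, with 8.69, 9.92 and 10.7 RPM in KD samples, against 5.49, 5.07 and 4.12 RPM in SCR samples (1.0, SE 0.139, adjusted p = 3.11e-06). It lies on chromosome 2 (25166505 to 25194964, minus strand, table's coordinates), where 41 of 53 tested genes within 2.5 Mb rose and none fell (median log2 fold change 0.48). The part of that neighbourhood in its rise was not tested. DNAJC4 rose by 0.38 on the log2 scale with overlapping groups, and lost its call without KD replicate 4, KD replicate 6 or SCR replicate 6. DNAJC5, DNAJC8, DNAJC16 and DNAJC28 were not called, and DNAJC5G lay below the filter.

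**Figure D5:**
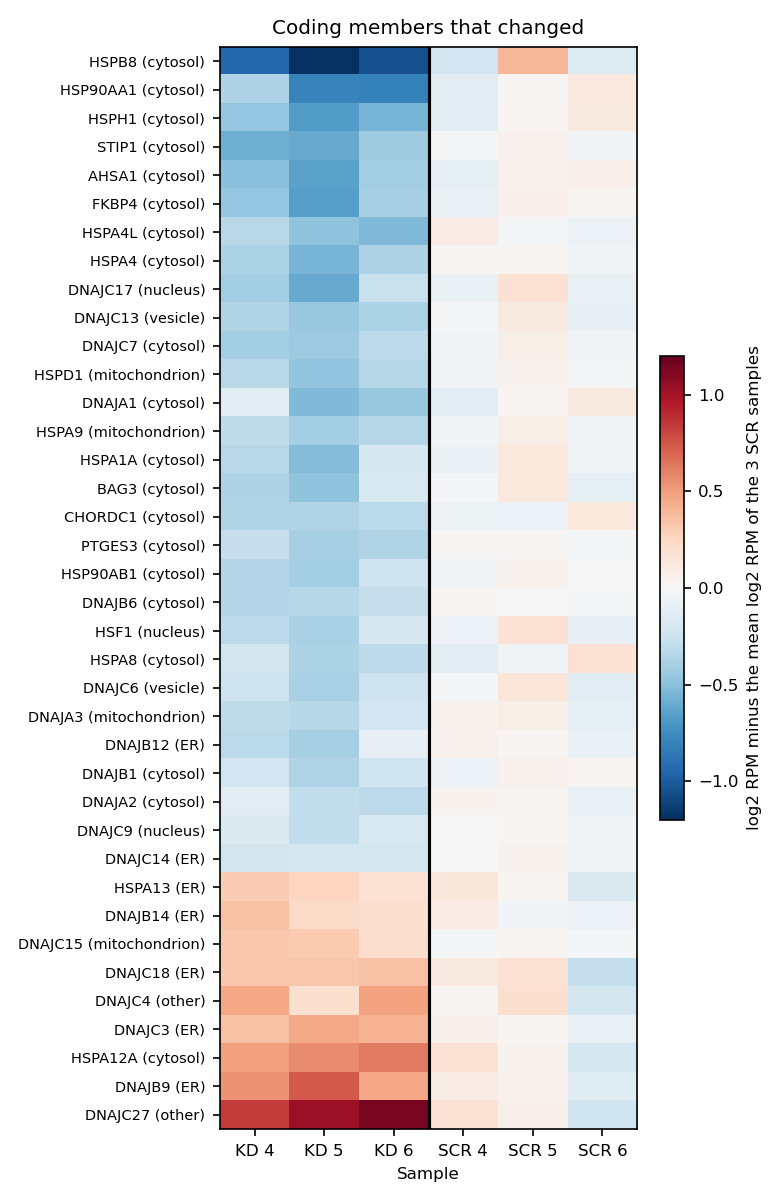
Log2 RPM of the 38 coding members called, minus the mean of the 3 SCR samples, in each KD sample (left of the line) and each SCR sample (right), ordered by log2 fold change. The 29 members that fell are blue in the KD samples and the 9 that rose are red; KD replicate 4 is paler than the other KD samples for HSP90AA1 and DNAJA1.

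The samples of a group also differed among themselves. KD replicate 5 was the lowest of the KD samples for 40 of the 69 coding members, against 42.4% of all tested genes. SCR replicate 6 was the lowest of the SCR samples for 48 of the 69, against 69% of all genes, yet it held the highest SCR value of HSP90AA1, HSPA8, HSPH1 and DNAJA1. Of the 38 coding members called, 23 kept their call and sign under all 17 alternative settings, 18 that fell and 5 that rose. Those that fell were HSP90AA1, HSP90AB1, HSPH1, HSPA4, HSPA4L, HSPA9, HSPD1, STIP1, AHSA1, FKBP4, PTGES3, CHORDC1, BAG3, DNAJA3, DNAJB1, DNAJB6, DNAJC7 and DNAJC13. Those that rose were DNAJC27, HSPA12A, DNAJB9, DNAJC3 and DNAJC15.

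Of the 28 pseudogene, antisense and readthrough members 17 were tested, none rose and 2 fell. HSP90AB3P had 21.3, 21.1 and 21.3 RPM in KD samples, against 27.9, 27.1 and 27.3 RPM in SCR samples (log2 fold change −0.37, limma adjusted p = 0.00147), close to the −0.33 of its parent HSP90AB1. HSP90AA4P had 1.44, 1.61 and 1.61 RPM in KD samples, against 2.13, 2.25 and 3.93 RPM in SCR samples (−0.78, adjusted p = 0.0103), and was not called without SCR replicate 6 (−0.50, adjusted p = 0.102). Reads of such copies may come from their parents, so neither is counted as a separate result. The antisense RNAs of DNAJC9 and DNAJC27 held 0 to 6 reads per library, and DNAJC3-AS1 was not called; whether counting used strand is not stated.

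Other chaperone lists, assembled with earlier results of these data known, are given by count. Of all tested genes 19.2% fell and 22.6% rose. The share that fell was higher among better-read genes: 26.0% at a mean of 10 RPM or more, 31.6% at 30 and 37.7% at 100. Every TRiC subunit had group means above 100 RPM, so the lists are to be read against the share at their own level. In the TRiC chaperonin, the ring that folds actin and tubulin, 5 of 8 tested subunits fell and 1 rose (median log2 fold change −0.25). TCP1 had 133, 120.4 and 139.7 RPM in KD samples, against 176, 189.8 and 189 RPM in SCR samples (−0.50, limma adjusted p = 1.06e-05), while CCT7, the subunit that rose, had 266, 248 and 263 RPM in KD samples, against 220.0, 231 and 216 RPM in SCR samples (0.22, adjusted p = 0.0159). Genes near CCT7, on chromosome 2, had a median log2 fold change of 0.45. Prefoldin, the partner of TRiC, had 2 of 6 subunits that fell, PFDN2 and PFDN6. Of 11 tested exchange factors and related co-chaperones of HSP70, 7 fell and none rose (median −0.23). BAG2 (−0.50), BAG5 (−0.35) and GRPEL1 (−0.38) were among those that fell. In this list 4 fell without KD replicate 5 and 4 without SCR replicate 4. Of 13 genes of mitochondrial folding and proteolysis 9 fell and 1 rose (median −0.23): HTRA2, at 0.39, also on chromosome 2, where its neighbours had a median of 0.41. Among those that fell was TRAP1, the mitochondrial HSP90, with 87.5, 86.9 and 93.0 RPM in KD samples, against 109, 107 and 106 RPM in SCR samples (−0.27, adjusted p = 0.00433).

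Among 21 further HSP90 co-chaperones 11 fell and 1 rose (median −0.22), TTC1 (−0.56), PPID (−0.42), RUVBL2 (−0.38) and NUDC (−0.35) among those that fell. The gene that rose was AHSA2, a relative of AHSA1, with 123, 133 and 143 RPM in KD samples, against 62.7, 57.5 and 42.7 RPM in SCR samples (log2 fold change 1.31, SE 0.102, limma adjusted p = 2.60e-10). Transcripts of AHSA1 and AHSA2 thus moved in opposite directions, and whether AHSA2 yields a working protein was not examined. AHSA2 lies on chromosome 2, in a stretch whose tested genes had a median of 0.41. Of 18 ER folding genes 5 rose (27.8%) and 4 fell (22.2%), with a median of −0.03. Most of them had means above 30 RPM, where 17.4% of all genes rose and 31.6% fell. The disulfide isomerases PDIA4 (0.45) and PDIA6 (0.42) and the ER stress gene CRELD2 (0.47) rose, and TXNDC5 (−0.35) and the lectin chaperone CANX (−0.33) fell. Genes near PDIA4 and PDIA6 had medians of 0.56 and 0.46, and those near CRELD2 had 0.15. The part of the neighbourhoods in these rises, and in those of CCT7, HTRA2 and AHSA2, was not tested. A mixed list of 13 tested genes linked to the heat shock response held 5 that fell and 2 that rose (median −0.05). Among them are HSF4, HSBP1 and HSPBAP1, which are named for a heat shock factor or for a binding partner. MRPL18 (−0.76), SERPINH1 (−0.50) and CACYBP (−0.37) were lower and HSF4 (1.14) and IER2 (0.31) higher in KD samples. Genes near HSF4 and IER2 had medians of −0.01 and −0.03.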

How the data were processed

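RNA of 3 ALDH1B1 KD and 3 SCR control samples was sequenced from strand-specific total RNA libraries, per the labels' protocols. The authors deposited a table of log2(RPM + 1e-04) values per gene line. Bowtie, Partek and hg38 are named in the submitters' processing notes, with no version. The annotation used and the treatment of shared reads were not given in the sources used here, and the table's own positions did not match an hg38 annotation, so its build is left unnamed. Of 24549 lines, 1 was kept for each of 22258 symbols; values were the same at each locus of the 1192 symbols listed at several loci.

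The test was run on genes averaging 0.688 RPM or more (1 RPM when only reads in listed genes are the total), on the deposited log2 scale with limma 3.58.1 in R 4.3.3 (trended variance prior, two-sided), and p-values of all 15496 genes were adjusted together by the Benjamini-Hochberg method, with a threshold of 0.05. A count model was not run, because only 74.2 to 76.1% of low values came out within 0.02 of whole reads; depth per library was estimated from the value of 1 read. For ALDH1B1 the exact permutation test gave p = 0.100, two-sided, the smallest that 3 against 3 samples allow. Members and lists were chosen with earlier results of these data known. Per-sample values are given for ALDH1B1, for up to 6 called members per family by adjusted p, for the best-read member of each family, and for HSF1, HSF2, BAG3 and the HSP90 co-chaperones; in other lists up to 5 genes by adjusted p are named. HSPA6 and other genes outside this rule were picked after seeing their values. Compartments, 1 per gene, and families were assigned from textbook knowledge, with earlier results of these data known. The test was tried on simulated data, and 17 alternative settings were run.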

Additional observations from a re-analysis of the deposited data

How the results depend on the processing

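Counts of calls were recomputed under 17 alternative settings. Without a variance trend the coding members that rose numbered 5, the ER members that rose 2, the ER members that fell 0 and the related-list genes that rose 6, against 9, 5, 2 and 10 as reported. Without a filter on low values 3 ER members rose. Quantile normalization, upper quartile scaling and totals without mitochondrial genes each gave 2 cytosolic members that rose, against 1. Replicates 4, 5 and 6 carry the same numbers in both groups, but deviations of same-numbered samples correlated at −0.05, −0.06 and −0.13 and 0 of 6 samples correlated best with its own number, so the numbers were not taken as pairs. With the replicate number as a block, 24 coding members fell and 6 rose, 2 ER members rose and 1 fell.

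Leaving out 1 sample at a time gave 21 to 33 coding members that fell and 5 to 9 that rose, 17 to 20 cytosolic members that fell, 2 to 5 ER members that rose and 0 to 2 that fell. Over all genes 2025 to 3738 fell and 2904 to 3455 rose, and 30 to 47 related-list genes fell. Sign changes were seen in members that were not called. With totals without mitochondrial genes DNAJA4 was at 0.00, DNAJC22 at 0.01 and HSPA2 at 0.00; under quantile normalization DNAJC24 was at −0.07 and HSF2 at −0.05. Leaving out 1 sample at a time gave log2 fold changes of −0.17 to 0.05 for DNAJC22, −0.03 to 0.12 for DNAJC24, −0.02 to 0.07 for HSPA14, −0.03 to 0.04 for CDC37 and −0.03 to 0.09 for HSPB11. The cause of these changes was not tested. The median log2 fold change of all genes stayed within −0.05 and 0.05 in every setting, while the share of calls that fell was 45.9% as reported, 53.2% under quantile normalization, 38.7% with totals without mitochondrial genes and 55.0% without SCR replicate 6. Members at a few reads per library, such as HSPB6, HSPB7 and DNAJB3, were too thinly read to test.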
